A study of Homo sapiens with 9 samples.

Results

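The proteasome genes measured here were those with a symbol of PSMA, PSMB, PSMC, PSMD, PSME, PSMF or PSMG followed by digits alone in the deposited TPM data. There were 47 of them among the 62709 genes of the count table, and 46 passed the filter on low counts. The one left untested was PSMB11, a catalytic subunit of the thymus, with 2 reads in 1 pseudopodia library and 0 in the other 8 libraries. The rule used names, but the TPM data hold 37196 genes, as many as have a read in the count table. There was 1 further gene with such a symbol, which had 0 reads and was not among the members.

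The cells were hTERT-MSC, a human adipose mesenchymal stem cell line immortalised with telomerase. They were starved of serum overnight, left for 2 h on membranes with pores of 3 µm, and then exposed for 1 h to PDGF-BB at 50 ng/mL in the lower well, where it acts as an attractant for mesenchymal cells. Pseudopodia are the processes scraped off the lower face of the membrane, and cell body is the material scraped off the upper face afterwards. Whole cell libraries carry the same PDGF-BB label, and how they were collected is not described separately. There were 3 libraries of total RNA in each of the pseudopodia, cell body and whole cell groups, all of 1 line and all labelled with the growth factor, with no untreated group among them. Nothing in the labels says whether the 3 libraries of a group stem from separate cultures. The p-values therefore reflect only how far these samples scatter, and that scatter may be technical.

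The proteasome is the protease that degrades proteins tagged with ubiquitin. Its core is a stack of rings: alpha subunits form the outer gates and beta subunits the inner rings, where PSMB5, PSMB6 and PSMB7 carry the catalytic sites. A regulatory particle caps the core, with a base of ATPases (PSMC) that unfold substrates, non-ATPase subunits (PSMD) that bind ubiquitin, and a lid in which PSMD14 removes the ubiquitin chain. Other caps, among them PSME1 with PSME2, PSME3 and PSME4, open the core without needing ubiquitin, and dedicated chaperones (PSMG genes for the core, PSMD5, PSMD9 and PSMD10 for the base) help assemble the complex. The transcription factor NFE2L1 induces proteasome genes through antioxidant response elements when the protease is impaired, and interferon induces the immune subunits PSMB8, PSMB9 and PSMB10.

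Promoters of 41 of the 47 genes were found in the RefSeq table (GRCh38.p14), as 50 stretches of 300 bases that run from 250 bases before a transcription start to 50 after it. They were searched on both strands for letters of 3 elements that do not overlap each other in the matches shown. The core of the antioxidant response element, TGACNNNGC, was in 15 of the 50 stretches (30.0%), against 13.3% of all 35114 promoters in the table. The core of the interferon-stimulated response element, GAAA followed after any 2 bases by GAAA again, was in 7 (14.0%), those of PSMA4, PSMB4, PSMB8, PSMB10, PSME1, PSME2 and PSMG4, against 3.57% of all promoters. The CCAAT box was in 20 (40.0%), against 34.6%. The promoters shown belong to 4 genes called in pseudopodia against cell body, and to PSME1 and PSME2, the subunits of 1 activator, which held both response elements. Capitals mark the matches, read 5′ to 3′ on the gene's strand. They lie at chr2:53970944-53971243 (minus strand, PSME4), chr17:63827181-63827480 (plus strand, PSMC5, the first of 2 starts), chr7:103347393-103347692 (plus strand, PSMC2), chrX:108091493-108091792 (minus strand, PSMD10), chr14:24135944-24136243 (plus strand, PSME1) and chr14:24146561-24146860 (minus strand, PSME2).
PSME4: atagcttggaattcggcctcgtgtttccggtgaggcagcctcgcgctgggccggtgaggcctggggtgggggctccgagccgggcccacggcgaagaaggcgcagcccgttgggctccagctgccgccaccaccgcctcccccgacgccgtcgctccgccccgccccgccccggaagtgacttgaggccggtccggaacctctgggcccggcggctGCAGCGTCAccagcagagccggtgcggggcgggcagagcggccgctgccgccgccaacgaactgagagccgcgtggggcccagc
PSMC5: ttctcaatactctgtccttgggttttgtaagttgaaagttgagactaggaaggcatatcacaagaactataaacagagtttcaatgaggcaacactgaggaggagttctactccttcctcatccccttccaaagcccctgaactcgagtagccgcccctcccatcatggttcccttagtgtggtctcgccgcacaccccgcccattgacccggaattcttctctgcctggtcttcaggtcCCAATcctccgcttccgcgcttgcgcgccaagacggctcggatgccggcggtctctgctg
PSMC2: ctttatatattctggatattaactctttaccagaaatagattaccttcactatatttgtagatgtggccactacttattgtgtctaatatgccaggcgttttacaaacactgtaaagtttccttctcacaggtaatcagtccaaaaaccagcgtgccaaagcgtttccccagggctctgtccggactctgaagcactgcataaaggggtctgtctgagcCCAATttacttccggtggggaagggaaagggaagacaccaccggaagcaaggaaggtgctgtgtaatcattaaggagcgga
PSMD10: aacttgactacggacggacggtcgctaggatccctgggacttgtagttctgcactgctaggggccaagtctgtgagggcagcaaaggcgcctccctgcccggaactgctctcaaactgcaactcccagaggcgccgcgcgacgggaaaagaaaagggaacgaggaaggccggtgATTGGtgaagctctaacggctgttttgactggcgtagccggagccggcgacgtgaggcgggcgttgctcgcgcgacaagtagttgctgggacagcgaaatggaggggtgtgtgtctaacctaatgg
PSME1: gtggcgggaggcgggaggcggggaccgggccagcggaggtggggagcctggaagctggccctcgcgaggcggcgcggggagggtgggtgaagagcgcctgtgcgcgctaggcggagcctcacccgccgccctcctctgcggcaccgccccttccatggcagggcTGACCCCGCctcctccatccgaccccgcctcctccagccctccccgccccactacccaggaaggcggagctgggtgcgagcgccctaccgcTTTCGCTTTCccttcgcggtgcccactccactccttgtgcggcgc
PSME2: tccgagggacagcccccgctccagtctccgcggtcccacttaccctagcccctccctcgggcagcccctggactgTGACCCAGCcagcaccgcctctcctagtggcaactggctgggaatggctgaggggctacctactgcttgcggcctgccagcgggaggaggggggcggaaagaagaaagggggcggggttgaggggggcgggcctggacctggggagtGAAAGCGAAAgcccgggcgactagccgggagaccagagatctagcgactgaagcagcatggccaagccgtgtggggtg
PSME4 held 1 antioxidant core, on the opposite strand of the gene, PSMC5, PSMC2 and PSMD10 held 1 CCAAT box each in the stretches shown (the other start of PSMC5 had an antioxidant core), and PSME1 and PSME2 held 1 antioxidant and 1 interferon core each. A match of letters is a description and does not show a bound site.

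Library totals ran from 55469030 to 83894938 counts. Replicates scattered most in pseudopodia, with a biological coefficient of variation of 32%, against 17.6% in cell body and 5.08% in whole cell. The test used 1 spread per gene over all groups, so p-values with pseudopodia may be too small and those for the other pair too large. Within the pseudopodia, the deviation of a library from its group mean went with GC content in replicate 2 (Pearson r = -0.558) and, with the other sign, in replicate 3 (r = 0.567), across 18675 genes, which are not independent replicates. By comparison, r lay between -0.0516 and 0.0689 in the libraries of the other groups. All 10 mesenchymal markers were above 1 TPM, with summed TPM of 8860 to 10300 in pseudopodia and 16600 to 18900 in cell body, against 18300 to 18900 in whole cell. Of markers of other cell types, 4 of 5 endothelial ones exceeded 1 TPM in some library (summed TPM 38.8 to 50.0 in pseudopodia and 59.5 to 84.9 in cell body, against 66.5 to 71.7 in whole cell), and so did 3 of 5 haematopoietic ones (30.8 to 36.3, 55.8 to 61.5 and 40.0 to 41.4 in the same groups), while PTPRC and ITGAM stayed under 1. The epithelial list moved through KRT8 and KRT18 (211 to 279, 249 to 293 and 147 to 157 in the same groups), with EPCAM, CDH1 and KRT19 under 1, and of the adipocyte list PLIN1 alone passed 1 TPM. The part of these markers in the results was not tested. In bulk fractions, a change in an mRNA's own amount cannot be told apart from a change in the other RNA it is measured against.

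Proteasome mRNAs were abundant in all 3 fractions. Their joint share of all counts was 0.281% ± 0.00372 in pseudopodia and 0.318% ± 0.03 in cell body, against 0.228% ± 0.00811 in whole cell (SD, n = 3 each). Their summed TPM, a level per transcript length, was 3180 ± 172 in pseudopodia and 4040 ± 271 in cell body, against 2910 ± 84.8 in whole cell. On summed TMM-scaled CPM, normalised read counts, the values were 3050 ± 166, 3180 ± 136 and 2100 ± 72.6 in the same groups. On both scales every pseudopodia and every cell body library lay above every whole cell library. For pseudopodia the gap on TPM was very small, with 3010 in the lowest pseudopodia library and 3000 in the highest whole cell library. Whole cell thus lay below both fractions and not between them, and the cause was not tested. Against cell body, every pseudopodia library was lower on the TPM scale, whereas on CPM the ranges overlapped. TMM factors rescale each library, and TPM carry no such factor.

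Levels of single members, which include subunits, alternative caps and chaperones, were far from equal. Per length, the highest mean over the 9 libraries was that of PSMB4, a beta subunit, at 245.5 TPM. PSMA7, an alpha subunit, had 227.9 TPM and PSME1 had 220.8 TPM. The lowest tested members were PSMD9 at 3.063 TPM, PSMA6 at 1.167 TPM and PSMA2 at 0.211 TPM. By group, PSMB4 had 233.4 ± 25.6 TPM in pseudopodia and 290.4 ± 34.9 TPM in cell body, against 212.7 ± 10.2 TPM in whole cell, and PSMA7 had 219.0 ± 39.0, 274.8 ± 30.4 and 190.0 ± 6.15 TPM. These neighbours in the order differed by less than 1 SD in pseudopodia and in cell body, but by more than their SDs in whole cell. Exons of PSMA2 and PSMA6 overlap those of other annotated genes, and PSMA6 also has 4 named pseudogenes in the table with 976 reads in all. PSMD9 shares 19.87% of its exon bases with other genes on its strand. Reads of these 3 genes may have been assigned elsewhere, so their low levels are uncertain.

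**Figure D1:**
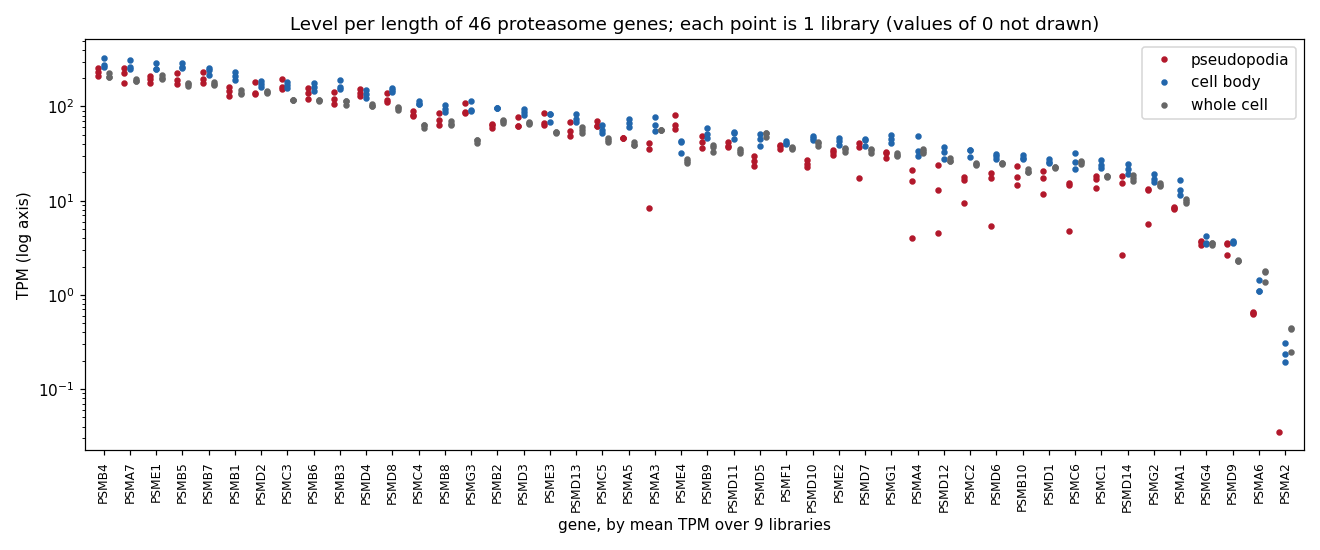
TPM (level per length, log axis) of the 46 tested proteasome genes in each library, ordered by the mean over 9 libraries, with pseudopodia, cell body and whole cell side by side. The means fall across 3 orders of magnitude, with PSMB4 highest at 245.5 and PSMA2 lowest at 0.211, and 1 pseudopodia library lies below the rest for a set of genes in the middle of the order.

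The comparison of pseudopodia with cell body asks which mRNAs differ between protrusions and the cell bodies left above the membrane. Of the 46 proteasome genes, 2 rose in pseudopodia (PSME4 and PSMC5) and 6 fell (PSMA2, PSMC2, PSMA6, PSMD10, PSMD5 and PSMB2), while 38 did not pass edgeR's quasi-likelihood test at a Benjamini-Hochberg adjusted p under 0.05. Among all 19426 genes tested, 18.6% were higher and 19.9% lower, so both shares of the proteasome genes, 4.35% and 13.0%, were below the background. The median log2 fold change of the members was -0.15, against -0.05 over all genes. On log2(TPM + 1), with limma, 1 of 46 members was higher and 29 were lower (main test 2 and 6). Among all 19426 genes, 2310 were higher and 5907 lower on that scale, so the share of lower members was above the background there. That scale moved the median of all genes to -0.17, and relative to it the members' median was -0.24, against -0.10 in the main test. With an offset for GC content and length, 5 members were higher and 4 lower, beside 4472 and 3878 of 18675 genes. The members' median then stood at -0.09 relative to all genes. Single libraries moved the counts of the main test. Without pseudopodia replicate 3, 16 members were lower, beside 4506 of 20371 genes. Without pseudopodia replicate 2, 12 members were lower, beside 4561 of 20154 genes. Both were larger shares of the 46 members than of all genes. By contrast, 4 were lower when pseudopodia replicate 1 was left out, 4 for cell body replicate 2 and 3 for cell body replicate 3, each a smaller share than among all genes. The higher members numbered 4 without pseudopodia replicate 2, 3 without cell body replicate 1 and 1 without cell body replicate 2 or 3. Each of these was a smaller share than among all genes.

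Pseudopodia against whole cell gave 29 proteasome genes higher and 3 lower (PSMA2, PSMA6 and PSMD5), with 14 not called, where 27.9% of all genes were higher and 33.1% lower. The share of the members that rose was 63.0%. The median log2 fold change of the 46 members was 0.50, against -0.12 over all genes, so 0.61 above it. On log2(TPM + 1) 9 of 46 members were higher and 10 lower, where 3227 and 9687 of 19426 genes were. The members' median of 0.02 stood 0.36 above the median of all genes, which was -0.34 on that scale. The 9 were PSMC3, PSMC4, PSMC5, PSMD4, PSMD8, PSMD9, PSME3, PSME4 and PSMG3. With the GC and length offset 38 members were higher and 1 lower, but it also made more genes of the whole table higher (6959 of 18675). The members' median of 0.65 then stood 0.52 above that of all genes, a smaller lead than in the main test. The lower members numbered 5 without pseudopodia replicate 2 (beside 6978 of 20154 genes) and 2 without whole cell replicate 1 or 2 (beside 5440 of 19872 and 5628 of 20145 genes).

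Cell body against whole cell gave 33 members higher and 0 lower, with 13 not called, where 18.1% of all genes were higher and 20.5% lower. The members that rose were 71.7% of those tested. The median log2 fold change of all 46 tested members was 0.61, against -0.06 over all genes. The count of 0 lower members was the same at an unadjusted p under 0.05 in edgeR and under DESeq2, limma-voom and limma on log2(TPM + 1). On that TPM scale 29 were higher, where 2643 of 19426 genes were, and the members' median of 0.41 stood 0.56 above that of all genes. The GC and length offset gave 40 higher and 0 lower, beside 5526 and 3568 of 18675 genes, with the members' median 0.58 above that of all genes. The comparisons share their libraries in pairs, so their counts are not independent of each other.

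**Figure D2:**
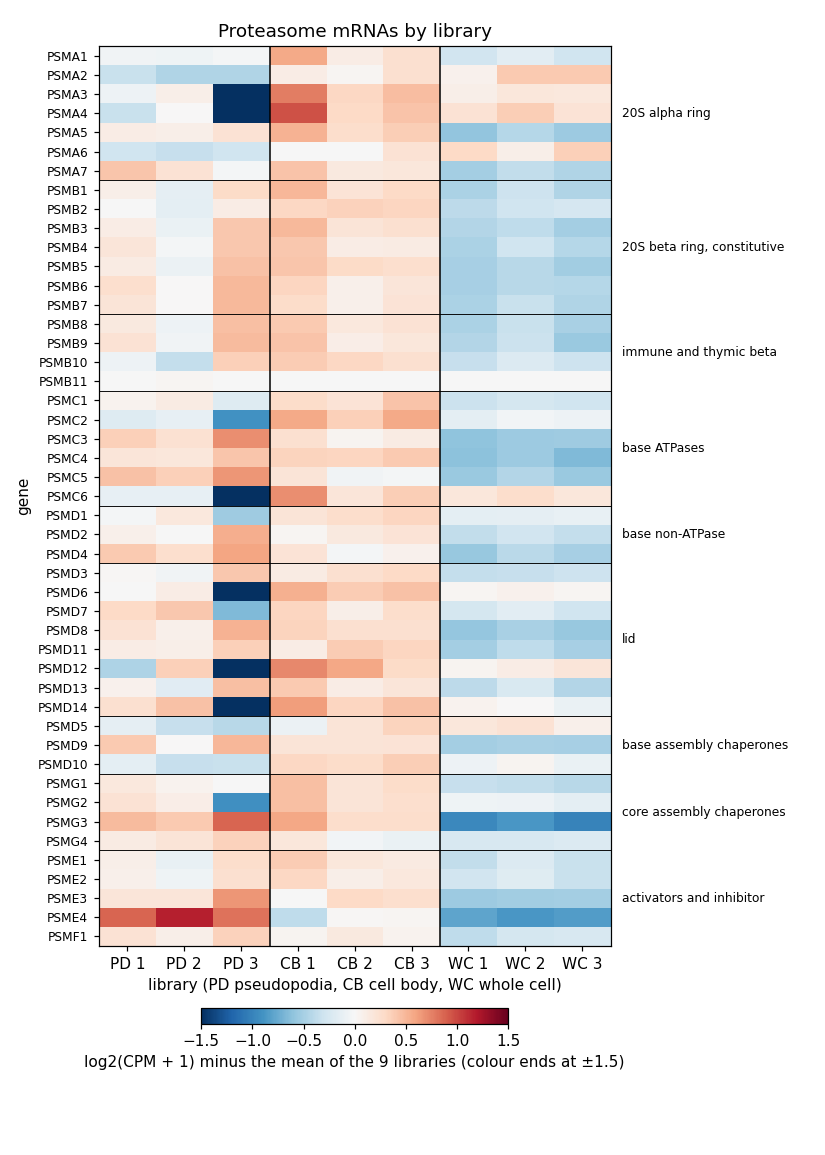
log2(CPM + 1) of all 47 proteasome genes in each library (columns: pseudopodia PD, cell body CB, whole cell WC) minus the gene's mean over the 9 libraries, with genes in rows by role and colour ending at ±1.5. Red is above and blue below the gene's mean: whole cell libraries are blue for most genes, PSME4 is red in all 3 pseudopodia libraries, and pseudopodia replicate 3 is dark blue for PSMA3, PSMA4, PSMC6, PSMD6, PSMD12 and PSMD14.

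Among the caps that open the core without ubiquitin, PSME4 (also called PA200, a nuclear activator that recognises acetylated histones) had the largest rise of any member in pseudopodia. It lies at chr2:53864067-53970840 on the minus strand (GRCh38, GENCODE 29), and 0.03% of its exon bases overlap a gene on the other strand. PSME4 had 193.4, 237.6 and 186.3 CPM in pseudopodia, against 81.01, 106.7 and 107.3 CPM in cell body and 60.55, 57.01 and 58.64 CPM in whole cell. The 3 groups did not overlap, and pseudopodia were the highest. The log2 fold change was 1.07 ± 0.147 (SE, edgeR adjusted p = 0.000179) for pseudopodia against cell body. PSME4 also rose relative to whole cell, by 1.81 ± 0.149 in pseudopodia (edgeR adjusted p = 2.56e-06) and by 0.74 ± 0.146 in cell body (edgeR adjusted p = 0.00269). The rise against cell body stayed called under every alternative run of pseudopodia against cell body, between 0.77 and 1.23.

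PSME1 and PSME2, which form the interferon-inducible activator PA28 alpha-beta, were not called in the main test of pseudopodia against cell body. On log2(TPM + 1) both were called lower there, where 5907 of 19426 genes were. PSME1 had 102.0, 88.83 and 115.3 CPM in pseudopodia, 125.1, 108.5 and 105.6 in cell body and 74.16, 83.33 and 76.16 in whole cell. PSME2 had 34.2, 30.96 and 38.27 CPM in pseudopodia, 40.3, 34.39 and 36.18 in cell body and 26.44, 28.45 and 25.5 in whole cell. Pseudopodia and cell body overlapped for both genes, and both of these groups lay above whole cell. Pseudopodia exceeded whole cell by 0.39 ± 0.132 for PSME1 (log2, edgeR adjusted p = 0.0241) and by 0.36 ± 0.129 for PSME2 (edgeR adjusted p = 0.0298). Both turned negative on log2(TPM + 1), at -0.08 and -0.10, and both calls were lost without pseudopodia replicate 1 or whole cell replicate 1 or 3 (adjusted p 0.0567 to 0.112). Both were also lost with upper-quartile factors and with a filter of 5 CPM in 3 libraries (edgeR adjusted p 0.0503 to 0.0882), and that of PSME2 with the replicate block. The ratio of PSME1 to PSME2 in TPM was 5.96 ± 0.153 in pseudopodia and 6.17 ± 0.25 in cell body, against 5.86 ± 0.187 in whole cell, and the ranges of the 3 groups overlapped. PSME3, the nuclear PA28 gamma, rose in pseudopodia by 0.89 ± 0.154 against whole cell (edgeR adjusted p = 0.000457), and PSMF1, the inhibitor PI31, by 0.52 ± 0.115 (edgeR adjusted p = 0.00253). With log2(TPM + 1) values these were 0.41 and 0.05 (limma adjusted p = 0.019 and 0.619).

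**Figure D3:**
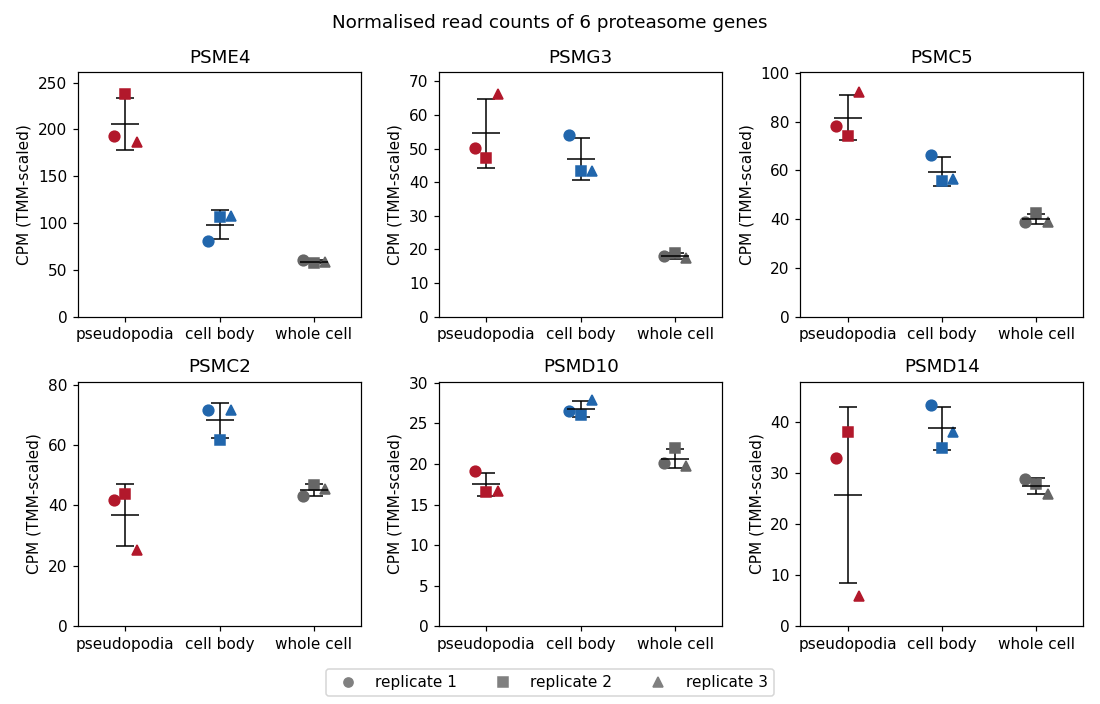
TMM-scaled CPM of PSME4, PSMG3, PSMC5, PSMC2, PSMD10 and PSMD14 in each library, with pseudopodia left of cell body and whole cell; marker shapes give the replicate and bars the mean ± SD (n = 3). PSME4 and PSMC5 are highest in pseudopodia, PSMG3 is high in both pseudopodia and cell body, PSMC2 and PSMD10 are lower in pseudopodia than in cell body, and PSMD14 has 1 low pseudopodia library at 5.922 CPM.

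All 7 of the 7 constitutive beta subunits rose in cell body against whole cell (log2 fold changes 0.62 to 0.81), where 18.1% of all genes were higher. All 7 also rose in pseudopodia against whole cell (0.30 to 0.73), where 27.9% of all genes were higher. On log2(TPM + 1), however, PSMB2 turned to -0.16 and none of the 7 passed limma's test. Between pseudopodia and cell body 1 of 7 passed the edgeR test, PSMB2, a non-catalytic beta subunit, which was lower. Of all genes, 19.9% were lower there. On log2(TPM + 1) PSMB1, PSMB2, PSMB3 and PSMB5 were called lower in that comparison, where 5907 of 19426 genes were. PSMB5, the chymotrypsin-like subunit and the main target of bortezomib, had 87.64, 75.53 and 109.2 CPM in pseudopodia, 107.4, 98.35 and 95.84 in cell body and 56.55, 60.12 and 55.75 in whole cell. Pseudopodia and cell body overlapped and both were above whole cell, by 0.66 ± 0.143 (log2, edgeR adjusted p = 0.0021) and 0.81 ± 0.143 (edgeR adjusted p = 0.00152). PSMB6, the caspase-like subunit, had 59.04, 49.63 and 69.36 CPM in pseudopodia, 61.96, 52.16 and 55.93 in cell body and 34.67, 36.64 and 36.25 in whole cell. PSMB7, the trypsin-like subunit, had 103.7, 90.54 and 126.5 CPM in pseudopodia, 109.9, 95.36 and 104.6 in cell body and 64.6, 71.53 and 65.99 in whole cell. As for PSMB5, pseudopodia and cell body overlapped and whole cell was lowest. On log2(TPM + 1) pseudopodia exceeded whole cell by 0.18 for PSMB5, 0.25 for PSMB6 and 0.19 for PSMB7 (limma adjusted p = 0.173, 0.0701 and 0.148), where the median of all genes was -0.34.

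PSMB2 had 83.47, 75.99 and 90.48 CPM in pseudopodia, 104.4, 107.2 and 104.8 in cell body and 63.64, 68.33 and 70.55 in whole cell. The 3 groups did not overlap and pseudopodia lay in the middle. Pseudopodia were lower than cell body by a log2 fold change of -0.34 ± 0.114 (edgeR adjusted p = 0.0345). That call did not hold when any of pseudopodia replicates 1 and 2 or cell body replicates 1, 2 and 3 was left out (adjusted p 0.0687 to 0.105), and with the GC and length offset the value was 0.01. Nor did it hold with upper-quartile factors or without the low-count filter (edgeR adjusted p = 0.072 and 0.101), with the replicate block or under DESeq2. The rise of PSMB2 in pseudopodia against whole cell (0.30 ± 0.114, edgeR adjusted p = 0.0374) was lost without pseudopodia replicate 1 or without any of the whole cell replicates (adjusted p 0.0708 to 0.114). It was also lost with upper-quartile factors, with a filter of 5 CPM in 3 libraries (edgeR adjusted p = 0.11 and 0.0799) and with the replicate block. PSMB4, the most abundant member, had 145.3, 125.2 and 169.6 CPM in pseudopodia, 170.0, 138.5 and 139.1 in cell body and 91.95, 103.7 and 94.8 in whole cell, again with whole cell lowest.

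The immune catalytic subunits PSMB8, PSMB9 and PSMB10, which take the place of constitutive ones, all rose in cell body against whole cell. Of all genes, 18.1% were higher there. PSMB8 had 73.74, 63.01 and 91.68 CPM in pseudopodia, 87.43, 74.51 and 77.61 in cell body and 47.55, 52.7 and 47.34 in whole cell. PSMB9 had 41.2, 33.99 and 49.4 CPM in pseudopodia, 47.79, 38.02 and 40.04 in cell body and 25.73, 27.97 and 23.63 in whole cell. Both rose against whole cell in pseudopodia (0.63 ± 0.149 and 0.69 ± 0.160, edgeR adjusted p = 0.00359 and 0.00325) and in cell body (both 0.70, edgeR adjusted p = 0.00422 and 0.00592). PSMB10 had 8.506, 6.781 and 11.75 CPM in pseudopodia, 11.99, 11.41 and 10.78 in cell body and 6.881, 7.67 and 7.054 in whole cell. It rose in cell body by 0.66 ± 0.192 (edgeR adjusted p = 0.0191), a call lost without cell body replicate 1 or whole cell replicate 1 or 3 (0.0567 to 0.074). In pseudopodia it was not called (0.32 ± 0.192, edgeR adjusted p = 0.167). On log2(TPM + 1), pseudopodia exceeded whole cell by 0.15 for PSMB8 and 0.21 for PSMB9 and stood at -0.16 for PSMB10, none of them called by limma. None of the 3 was called between pseudopodia and cell body, where 18.6% of all genes were higher and 19.9% lower. At an unadjusted p under 0.05 in edgeR it was also 0 of 3. Other settings called PSMB10 lower: the GC and length offset, limma-voom, both TPM scales and the fit without pseudopodia replicate 3. PSMB8 was called lower on both TPM scales. Of all genes, 3878 of 18675 were lower with that offset, 5949 of 19426 with limma-voom and 5907 of 19426 on log2(TPM + 1). The immune subunits made up 19.5% to 20.4% of the summed TPM of the 6 catalytic subunits in the pseudopodia libraries and 20.5% to 21.2% in cell body, against 20.3% to 21.3% in whole cell. The TPM ratio of PSMB8 to PSMB5 was 0.373 ± 0.00165, 0.353 ± 0.014 and 0.381 ± 0.00833 in these groups. That of PSMB10 to PSMB7 was 0.0916 ± 0.00996 in pseudopodia and 0.122 ± 0.00926 in cell body, against 0.118 ± 0.000381 in whole cell, the only one of the 3 pairs whose pseudopodia libraries all lay below the other 6. PSMB8 and PSMB9 overlap each other and PSMB8-AS1, which lies on the strand of PSMB9 and opposite to PSMB8. PSMB10 shares 34.75% of its exon bases with another gene on its strand. Reads of these genes may therefore have been split.

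Against whole cell 2 of 7 alpha mRNAs rose in pseudopodia (PSMA5 and PSMA7) and 2 fell (PSMA2 and PSMA6). Each share was 28.6%, near the 27.9% of all genes that were higher and the 33.1% that were lower. In cell body 3 of 7 rose (PSMA1, PSMA5 and PSMA7), or 42.9%, against 18.1% of all genes. On log2(TPM + 1) PSMA5 and PSMA7 stood at 0.20 and 0.19 in pseudopodia against whole cell and were not called (limma adjusted p = 0.0857 and 0.247). PSMA5 had 77.06, 75.5 and 82.5 CPM in pseudopodia, 102.1, 85.49 and 91.73 in cell body and 46.8, 52.62 and 48.49 in whole cell, and the 3 groups did not overlap. Its log2 fold change was 0.67 ± 0.118 (edgeR adjusted p = 0.000549) for pseudopodia against whole cell and 0.92 ± 0.119 (edgeR adjusted p = 0.000213) for cell body against whole cell. PSMA7 had 130.0, 113.0 and 95.21 CPM in pseudopodia, 131.1, 107.9 and 110.1 in cell body and 68.11, 75.09 and 70.72 in whole cell. PSMA1 had 7.509, 7.433 and 7.638 CPM in pseudopodia, 12.11, 8.527 and 9.431 in cell body and 6.261, 6.926 and 6.166 in whole cell, again with no overlap. It shares 24.66% of its exon bases with another gene on its strand, so its level is uncertain. The rise of PSMA1 in cell body (0.64 ± 0.162, edgeR adjusted p = 0.0102) narrowly missed the threshold without whole cell replicate 1 or 3 (0.0506 and 0.0502). The pseudopodia value lay below cell body by a log2 fold change of -0.41 ± 0.161, which missed the threshold (edgeR adjusted p = 0.0641).

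PSMA2 was close to its detection limit in pseudopodia. It had 6, 0 and 0 reads in pseudopodia, 28, 24 and 43 in cell body and 40, 55 and 49 in whole cell. Over summed reads scaled by library size, pseudopodia stood at 0.0613 of cell body (exact 95% interval 0.0219 to 0.138) and 0.0476 of whole cell (0.0172 to 0.106), intervals that cover counting error only. PSMA6 had 1.242, 1.182 and 1.254 CPM in pseudopodia, 1.748, 1.759 and 2.208 in cell body and 2.395, 1.939 and 2.55 in whole cell, so pseudopodia were the lowest. Its log2 fold change was -0.64 ± 0.193 against cell body (edgeR adjusted p = 0.0223) and -0.90 ± 0.192 against whole cell (edgeR adjusted p = 0.00184). With the GC and length offset these were -0.11 and 0.30. Without pseudopodia replicate 1 or cell body replicate 3 the fold change against cell body missed the threshold (edgeR adjusted p = 0.0533 and 0.11), as it did without the low-count filter (0.0702).

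Among the ATPases of the base, which form the unfolding ring, PSMC5 rose and PSMC2 fell in pseudopodia against cell body. PSMC5 (chr17:63827152-63832026, plus strand) had 78.47, 74.33 and 92.12 CPM in pseudopodia, 66.36, 55.51 and 56.5 in cell body and 38.87, 42.52 and 38.93 in whole cell. The groups did not overlap, and the rise was 0.46 ± 0.130 against cell body (log2, edgeR adjusted p = 0.0164) and 1.03 ± 0.131 against whole cell (edgeR adjusted p = 5.7e-05). The first was lost without cell body replicate 2 or 3 (edgeR adjusted p = 0.0737 and 0.0734) and on log2(TPM + 1), where it was 0.17. It was also lost with only the 6 libraries compared. FTSJ3 on the other strand overlaps 19.47% of its exon bases.

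PSMC2 (chr7:103344254-103369395, plus strand) had 41.87, 43.88 and 25.17 CPM in pseudopodia, 71.69, 61.53 and 71.46 in cell body and 43.09, 46.69 and 45.58 in whole cell. Every pseudopodia library lay below every cell body library, while pseudopodia overlapped whole cell. The log2 fold change against cell body was -0.88 ± 0.189 (edgeR adjusted p = 0.00346), and -0.27 (edgeR adjusted p = 0.0781) with the GC and length offset. PSMC3 had 108.3, 99.0 and 137.7 CPM in pseudopodia, 99.32, 86.88 and 91.59 in cell body and 55.18, 57.32 and 57.82 in whole cell, a rise of 1.02 ± 0.139 against whole cell (edgeR adjusted p = 9.18e-05). PSMC4 had 59.43, 58.9 and 70.04 CPM in pseudopodia, 65.93, 65.68 and 69.15 in cell body and 33.79, 35.58 and 32.74 in whole cell. For PSMC4 the other groups lay well above whole cell, by 0.88 ± 0.118 in pseudopodia (edgeR adjusted p = 7.95e-05) and 0.98 ± 0.119 in cell body (edgeR adjusted p = 0.000142). PSMC1 had 30.33, 31.77 and 25.46 CPM in pseudopodia, 35.6, 33.78 and 39.46 in cell body and 23.05, 24.07 and 23.62 in whole cell. The gene NRDE2 on the other strand overlaps 75.82% of the exon bases of PSMC1. PSMC1 also has 13 named pseudogenes with 1983 reads in all, so its values are uncertain.

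Ubiquitin receptors and lid subunits rose against whole cell in part. PSMD4, a ubiquitin receptor of the base, had 123.1, 111.7 and 141.7 CPM in pseudopodia, 108.2, 92.18 and 97.74 in cell body and 63.08, 70.49 and 66.21 in whole cell. The 3 groups did not overlap. PSMD4 rose by 0.91 ± 0.128 in pseudopodia against whole cell (log2, edgeR adjusted p = 0.000111), and the difference of 0.34 ± 0.127 from cell body missed the threshold (edgeR adjusted p = 0.0575). Of the 8 lid mRNAs, 4 rose in pseudopodia and 4 in cell body against whole cell (PSMD3, PSMD8, PSMD11 and PSMD13, of which PSMD13 was lost in both without whole cell replicate 1 or 3, and in cell body also without cell body replicate 1). Of all genes, 27.9% rose in pseudopodia and 18.1% in cell body against whole cell. The rise of PSMD13 in pseudopodia was also lost with upper-quartile factors (edgeR adjusted p = 0.0517). Between pseudopodia and cell body 0 of 8 lid mRNAs were called by edgeR, where 18.6% of all genes were higher and 19.9% lower. It was also 0 of 8 at an unadjusted p under 0.05. Of the 8 fold changes, 7 were negative. Other settings called some lid mRNAs lower. These were PSMD12 under DESeq2, PSMD3 and PSMD6 without pseudopodia replicate 3, and PSMD6 and PSMD12 without pseudopodia replicate 2. With limma-voom they were PSMD3, PSMD6, PSMD11 and PSMD12, where 5949 of 19426 genes were lower. On log2(TPM + 1) PSMD8 and PSMD13 joined these, where 5907 of 19426 genes were lower. PSMD8 had 149.6, 136.3 and 186.0 CPM in pseudopodia, 162.9, 152.3 and 152.7 in cell body and 85.59, 91.48 and 86.18 in whole cell, with log2 fold changes against whole cell of 0.84 ± 0.133 in pseudopodia and 0.83 ± 0.133 in cell body (edgeR adjusted p = 0.000249 and 0.000816).

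PSMD14, the deubiquitinase of the lid, showed how much 1 library weighed. It had 32.87, 37.94 and 5.922 CPM in pseudopodia, 43.28, 34.86 and 37.92 in cell body and 28.71, 27.81 and 25.76 in whole cell. Pseudopodia replicate 3 was below every other library, and replicates 1 and 2 were above every whole cell library. With all libraries PSMD14 was not called against whole cell (-0.10 ± 0.509, edgeR adjusted p = 0.878), and without pseudopodia replicate 3 it rose by 0.38 (edgeR adjusted p = 0.0137).

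In that library 8 members were at less than 50% of the mean of pseudopodia replicates 1 and 2: PSMA3, PSMA4, PSMC6, PSMD6, PSMD7, PSMD12, PSMD14 and PSMG2. The GC content of their longest transcripts was 31.96% to 52.19% (median 38.7%), against 37.25% to 60.1% (median 49.1%) for the other 37 members with reads in each pseudopodia library. In pseudopodia against cell body edgeR called 0 of the 8 (2 at an unadjusted p under 0.05), DESeq2 called 4 and limma-voom with sample weights 5, all lower. In pseudopodia against whole cell edgeR and DESeq2 called 0 (0 and 2 at an unadjusted p under 0.05), and limma-voom called PSMA4, PSMC6 and PSMD12 lower and PSMD7 and PSMG2 higher. In cell body against whole cell edgeR and DESeq2 called 0 (0 and 1 at an unadjusted p under 0.05), and limma-voom called PSMD6, PSMD7 and PSMG2 higher. PSMA4, an alpha subunit, had 32.88, 41.92 and 8.661 CPM in pseudopodia, 81.45, 51.31 and 56.41 in cell body and 48.5, 54.27 and 48.34 in whole cell, so pseudopodia replicates 1 and 2 also lay below every cell body library. Its log2 fold change against cell body was -1.18 ± 0.460 (edgeR adjusted p = 0.0721), and -0.75 (edgeR adjusted p = 0.0125) without pseudopodia replicate 3. PSMA3 had 32.02, 36.15 and 7.966 CPM in pseudopodia, 58.34, 42.16 and 46.98 in cell body and 36.14, 38.11 and 37.92 in whole cell, and gave -0.95 ± 0.439 (edgeR adjusted p = 0.119), or -0.53 (edgeR adjusted p = 0.0075) without that library. PSMA3 and PSMA4 were singled out after their values had been seen.

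Across the 46 tested members, fold changes went with GC content. In pseudopodia against cell body Pearson's r was 0.46 and Spearman's rho 0.64. With whole cell in place of cell body, r was 0.50 and rho 0.61, and in cell body against whole cell r was 0.47 and rho 0.45. Over all 18675 genes with a GC value, r was 0.19, 0.31 and 0.26 in these comparisons. Without pseudopodia replicate 3, r was 0.30 and 0.39 for the first and second of these comparisons (rho 0.49 and 0.52). These are descriptions across genes of the same libraries, which share depth and library preparation. How much of the members' fold changes GC content accounts for was not tested beyond the offset fit, whose counts stand beside each comparison.

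**Figure D4:**
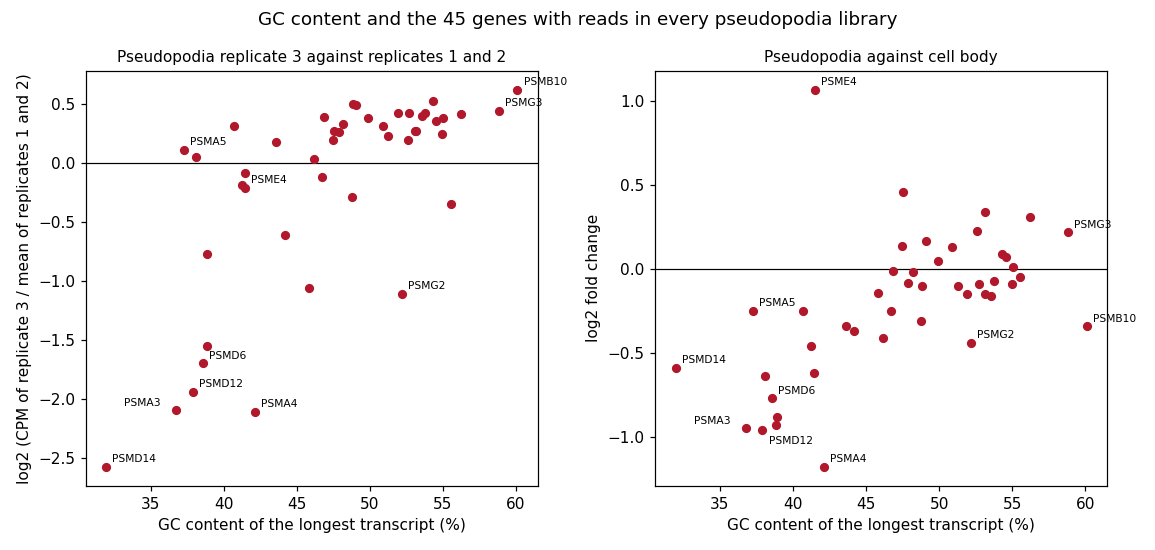
Each point is 1 of the 45 proteasome genes with reads in every pseudopodia library; the x axis is the GC content of its longest transcript (%), and the y axes are log2 of pseudopodia replicate 3 over the mean of replicates 1 and 2 (left) and the log2 fold change of pseudopodia against cell body (right). Genes of low GC content, such as PSMD14 and PSMA4, lie lowest on the left (Pearson r = 0.68, Spearman's rho 0.69), and PSME4 stands highest on the right at 1.07.

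Of the 3 chaperones that assemble the base, 2 fell in pseudopodia against cell body, where 19.9% of all genes were lower. PSMD10 (gankyrin, chrX:108084207-108091618, minus strand) had 19.16, 16.55 and 16.72 CPM in pseudopodia, 26.54, 25.98 and 27.86 in cell body and 20.15, 21.99 and 19.76 in whole cell. The 3 groups did not overlap and cell body was highest. The log2 fold change of pseudopodia against cell body was -0.62 ± 0.124 (edgeR adjusted p = 0.0024), and -0.11 (edgeR adjusted p = 0.644) with the GC and length offset. PSMD5 had 38.85, 33.2 and 31.67 CPM in pseudopodia, 40.18, 48.83 and 53.83 in cell body and 48.0, 49.75 and 44.97 in whole cell. Pseudopodia were lowest, at -0.46 ± 0.142 against cell body (edgeR adjusted p = 0.0237) and -0.46 ± 0.142 against whole cell (edgeR adjusted p = 0.0152). With the GC and length offset these were 0.06 and 0.45. The first missed the threshold with the replicate number as a block, without cell body replicate 2 and without cell body replicate 3 (edgeR adjusted p = 0.0505, 0.0718 and 0.118), and the second without whole cell replicate 1 or 2 (0.0591 and 0.073). Further losses were the first with only the 6 libraries compared and the second without the low-count filter (edgeR adjusted p = 0.0506). PSMD9 went the other way, with 8.954, 6.604 and 9.664 CPM in pseudopodia, 7.676, 7.648 and 7.764 in cell body and 4.334, 4.418 and 4.342 in whole cell, a rise of 0.94 ± 0.166 in pseudopodia against whole cell (edgeR adjusted p = 0.000533). As a level per length, the 3 chaperones summed to 54.8 ± 5.7 TPM in pseudopodia and 94.8 ± 8.71 in cell body, against 93.2 ± 4.81 in whole cell.

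Of the chaperones of the core, PSMG3, a partner of PSMG4 in alpha ring assembly, had the largest rise of any member in cell body against whole cell. It lies at chr7:1567330-1571005 on the minus strand, and an antisense gene overlaps 3.06% of its exon bases. PSMG3 had 50.04, 47.29 and 66.24 CPM in pseudopodia, 54.06, 43.18 and 43.29 in cell body and 17.91, 19.03 and 17.35 in whole cell. Pseudopodia and cell body overlapped, and both were far above whole cell, by 1.59 ± 0.160 in pseudopodia (log2, edgeR adjusted p = 1e-05) and 1.37 ± 0.159 in cell body (edgeR adjusted p = 0.000104). The pseudopodia value was called under every alternative run, between 1.10 and 1.69. PSMG4 rose far less, by 0.50 ± 0.145 in pseudopodia (edgeR adjusted p = 0.0107), and was not called in cell body (0.28 ± 0.145, edgeR adjusted p = 0.154). The value of PSMG4 in pseudopodia on log2(TPM + 1) was 0.03 (limma adjusted p = 0.822). PSMG1, the partner of PSMG2, had 20.94, 19.53 and 18.59 CPM in pseudopodia, 25.89, 21.63 and 22.92 in cell body and 14.54, 14.33 and 13.85 in whole cell, so cell body was highest and whole cell lowest without overlap.

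**Figure D5:**
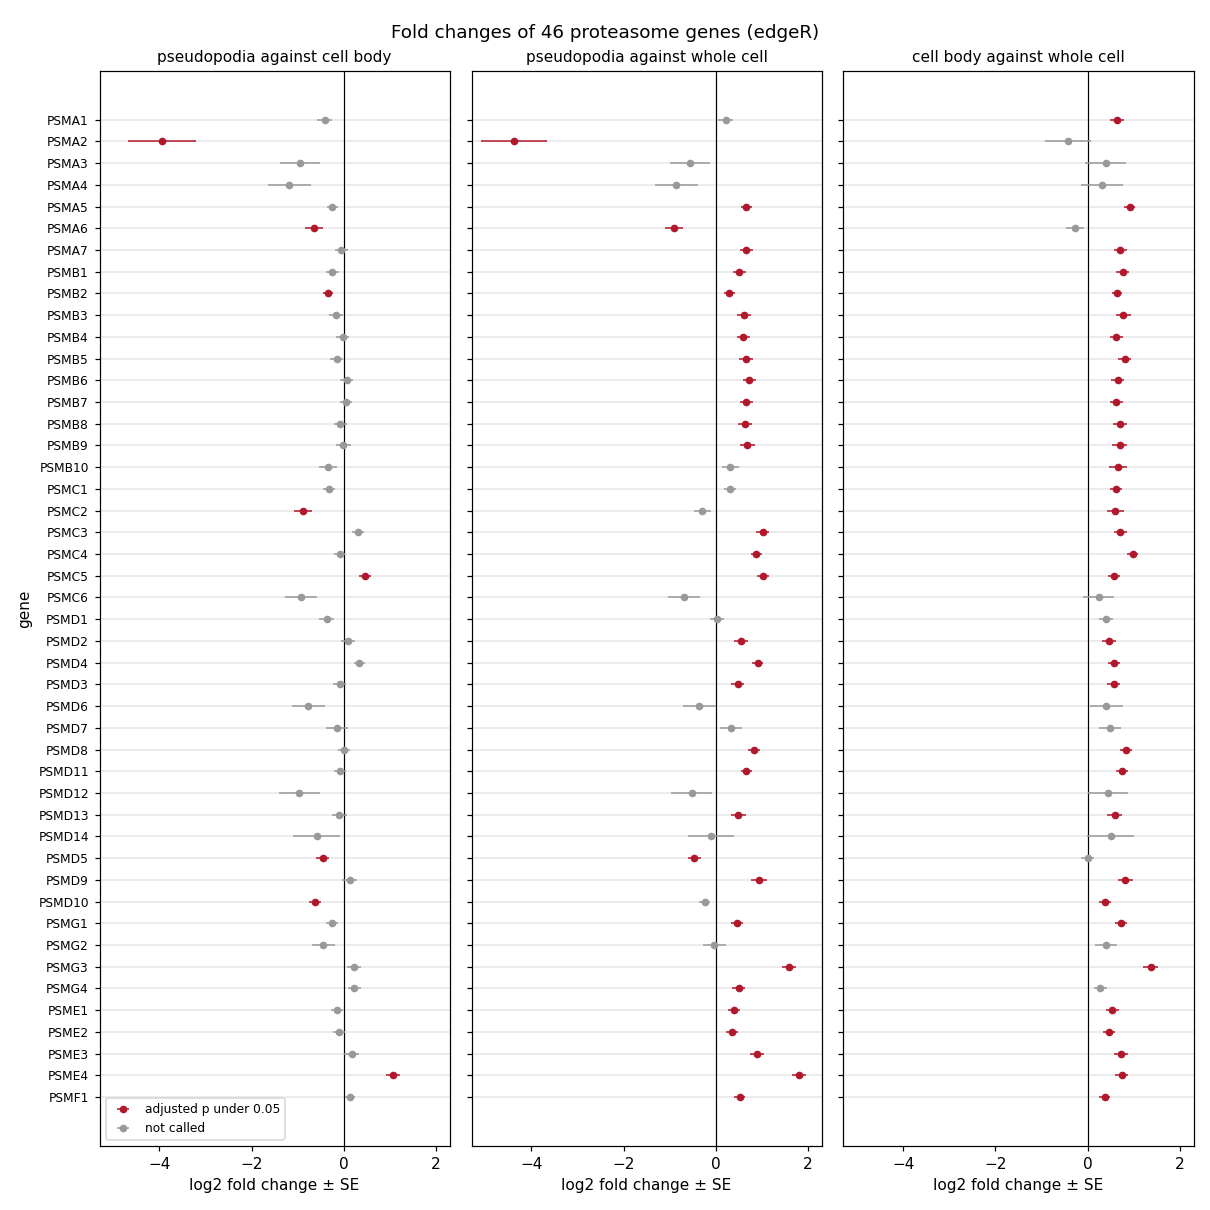
log2 fold change ± SE (edgeR) of the 46 tested proteasome genes, grouped by role, in pseudopodia against cell body, pseudopodia against whole cell and cell body against whole cell. Red points passed the adjusted p threshold of 0.05, and grey points were not called. Most points lie near 0 for pseudopodia against cell body and right of 0 in the comparisons with whole cell, where PSME4 (1.81 in pseudopodia) and PSMG3 (1.37 in cell body) stand farthest right and PSMA2 (-4.37 in pseudopodia) farthest left.

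A list of 40 other genes of the pathway, from ubiquitin to proteasome regulators, was read in the same test. In pseudopodia against cell body 14 of 40 rose (35.0%, against 18.6% of all genes) and 5 fell (12.5%, against 19.9%). In pseudopodia against whole cell 23 rose (57.5%, against 27.9%) and 5 fell (12.5%, against 33.1%). In cell body against whole cell 17 rose (42.5%, against 18.1%) and 0 fell (20.5% of all genes), also 0 at an unadjusted p under 0.05 in edgeR. Some of those with the highest and the lowest fold changes among the genes called against cell body are given, a choice made after the values were seen. NFE2L1, the factor that induces proteasome genes, had a level of 2282 ± 441 CPM in pseudopodia, against 439.2 ± 61.6 CPM in cell body and 436.7 ± 7.62 CPM in whole cell (SD, n = 3 each). Its log2 fold change was 2.38 ± 0.164 for pseudopodia against cell body (edgeR adjusted p = 1.35e-06) and 0.01 ± 0.156 for cell body against whole cell (edgeR adjusted p = 0.972). The mRNA of NFE2L1 was thus present in all 3 groups and higher in pseudopodia than in the others. HUWE1, a ubiquitin ligase, had a level of 950.1 ± 158 CPM in pseudopodia, against 250.1 ± 66.0 CPM in cell body and 305.1 ± 20.1 CPM in whole cell, a rise of 1.93 ± 0.201 against cell body (edgeR adjusted p = 2.33e-05). UBQLN4, a shuttle that brings ubiquitinated proteins to the proteasome, rose by 1.61 ± 0.175 (edgeR adjusted p = 3.19e-05). Its paralogs moved the other way, UBQLN2 by -1.15 ± 0.158 and UBQLN1 by -0.73 ± 0.169 (edgeR adjusted p = 0.000181 and 0.00542), with UBQLN1 at -0.24 (edgeR adjusted p = 0.189) under the GC and length offset.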

How the data were processed

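RNA was sequenced from 9 libraries. The deposited table of read counts holds whole numbers and, per the labels, comes from featureCounts. The authors deposited TPM values as well. The submitters' processing notes name GRCh38 and DESeq2. Not given in the sources used here are the aligner, annotation release, strand setting and versions. Of the count table, 1 blank line was left out.

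Counts were scaled with TMM, filtered by group with edgeR's filterByExpr and tested with edgeR 4.0.16 under R 4.3.3, using its robust quasi-likelihood test. All 9 libraries entered 1 fit, and Benjamini-Hochberg adjustment ran over the 19426 genes tested. CPM values are scaled by total and TMM factor. Levels of different genes were compared in TPM. Positions, overlaps and GC content came from GENCODE release 29, and RefSeq supplied promoters. The test was checked on simulated counts.

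Alternatives were DESeq2 1.42.0 and its size factors, upper-quartile factors, other filters on low counts, normalisation without mitochondrial and ribosomal protein genes, a replicate block, a GC and length offset, limma 3.58.1 (voom with sample weights, and TPM on a log2 scale with 1 or 0.1 added), a fit of the 6 libraries compared alone, and each library left out.

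The members, their role groups, the pathway list and the markers were chosen with earlier results of these data known. Values per library are given for members with the 6 largest or 6 smallest called fold changes in a comparison, for a set list of subunits, and for the 3 highest and 3 lowest by TPM. PSMA3 and PSMA4 were added after seeing their values. No replicate pair was within counting noise (chi-square per gene of 5.04 or more).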

Additional observations from a re-analysis of the deposited data

How the results depend on the processing

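In pseudopodia against cell body the higher members numbered 4 without mitochondrial and ribosomal protein genes, 5 with the GC and length offset, 5 with limma-voom, 1 on log2(TPM + 1), 1 on log2(TPM + 0.1), 1 with only the 6 libraries compared and 1 to 4 with each library left out. Each of these was a smaller share than among all genes. The lower members numbered 20 with limma-voom, beside 5949 of 19426 genes, and 29 on either TPM scale, beside 5907 and 6090. These were larger shares of the 46 members than of all genes. With each library left out the lower members numbered 3 to 16, 16 without pseudopodia replicate 3. Their share passed that of all genes only without pseudopodia replicate 2 or 3. The median of all 46 members was -0.41 on log2(TPM + 1) and -0.44 on log2(TPM + 0.1). Against whole cell, pseudopodia gave 9 higher members on either TPM scale, beside 3227 and 3207 of 19426 genes. The lower members numbered 1 with the GC and length offset, 6 with limma-voom, 10 on log2(TPM + 1), 9 on log2(TPM + 0.1) and 2 to 5 with each library left out. All of these were smaller shares than among all genes, of which 8224 were lower with limma-voom and 9687 and 9571 on the TPM scales. The median over all 46 members was 0.02 on both TPM scales. Cell body against whole cell had a median over these members of 0.52 with upper-quartile factors, 0.41 on log2(TPM + 1) and 0.43 on log2(TPM + 0.1). With the replicate block the counts were 2 higher and 5 lower, 27 and 3, and 31 and 0 in the 3 comparisons, in the order above. Among all 19426 genes they were 3267 and 3653, 5131 and 6363, and 3051 and 3747. Deviations of same-numbered libraries from their group means correlated at -0.0807 to 0.0901, and those of other pairs at -0.176 to 0.144. Deviations in pseudopodia also went with GC content, so these values do not show whether same-numbered libraries share a culture.

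Signs were followed for a selection of genes and comparisons, not for every member, and the changes of sign among them are given here. NFE2L1 in cell body against whole cell, outside that selection, lay between -0.18 and 0.13. In pseudopodia against cell body, the GC and length offset gave 0.01 for PSMB2, 0.02 for PSMB8, 0.21 for PSMB9, 0.06 for PSMD5 and 0.03 for PSME2. The TPM scales gave -0.23 for PSMB6 and -0.25 for PSMB7. Upper-quartile factors gave 0.01 and limma-voom 0.03 for PSMB9, and the fit of 6 libraries -0.01 for PSMB7. Leaving out each library in turn gave -0.06 to 0.18 for PSMB6, -0.09 to 0.15 for PSMB7, -0.22 to 0.05 for PSMB8 and up to 0.12 for PSMB9. In pseudopodia against whole cell, the TPM scales gave -0.21 and -0.23 for PSMA1, -0.16 for PSMB2, -0.16 and -0.17 for PSMB10, -0.15 and -0.16 for PSMC1, -0.08 for PSME1 and -0.10 for PSME2. The GC and length offset gave 0.30 for PSMA6, 0.45 for PSMD5, 1.37 for PSMD14 and 0.82 for UBQLN1. PSMD14 was 0.23 with limma-voom, and -0.49 to 0.38 with each library left out, the highest without pseudopodia replicate 3. Of the values of single genes followed in this way, 1383 kept direction and side of the threshold, 57 gained a call, 103 lost it and 37 changed sign. The cause of these changes was not tested. The low reads of PSMA2 limit its precision.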
